A study of Mus musculus with 5 samples.

Results

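The nuclear factor I genes and further regulators of glial fate were followed in neural stem and precursor cells of the adult mouse subventricular zone. A total of 10 genes were chosen by symbol: the transcription factor genes Nfia, Nfib, Nfic, Nfix, Stat3, Lhx2, Zbtb20 and Npas3, and the receptor chain genes Il6st and Lifr. They were 10 of the 46078 genes in the table of each library, and all 10 were among the 13870 genes tested. Messenger RNA was sequenced in 5 libraries of cells from C57BL/6 mice, labelled female and 5 to 8 weeks old (the study's methods give a higher age for such mice), with no mutation and a PBS sham exposure. RNA was taken 1 h (replicates 1 and 2) or 8 h (replicates 13, 14 and 15) after PBS. The cells had been expanded as spheres in epidermal and fibroblast growth factor. According to the study's methods they were then plated on coated wells, the day before PBS. The plating protocol referred to there uses an astrocyte medium with serum and both factors. The cells thus model cultured precursors and not the tissue itself. The study used such cells, before differentiation, as a negative control of forebrain origin. The study's methods count each animal as a biological replicate of subventricular zone cells, and the labels of these libraries do not say whether they came from separate animals or cultures. If they did not, p-values measure only a technical spread.

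Nuclear factor I (NFI) proteins bind DNA as dimers and open astrocyte genes as neural precursors turn from making neurons to making glia. STAT3 reaches the same genes by another route. Cytokines such as leukemia inhibitory factor and ciliary neurotrophic factor join the receptor chains gp130 (encoded by Il6st) and LIF receptor (Lifr), JAK kinases then phosphorylate STAT3, and STAT3 moves to the nucleus. Nfix is also known for keeping adult neural stem cells quiescent. Lhx2, a LIM-homeodomain factor, holds back astrocyte formation in the developing hippocampus, Zbtb20 is a zinc finger repressor known from hippocampal neurons and from astrocyte formation, and Npas3 is a bHLH-PAS factor of neural precursors.

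The 5 libraries fell into 2 kinds that crossed the times only in part. The library identifiers in the labels run in 2 number series, whose meaning the sources used here do not give. Both 1 h libraries and 8 h replicate 14 belonged to identifier series 1, and 8 h replicates 13 and 15 to series 2. The X-inactivation transcript Xist was at 165 and 200 TPM (a level scaled for transcript length and library size) in series 2 and at 0.0285 to 0.0611 TPM in series 1. The sum of 4 Y-linked genes (Ddx3y, Eif2s3y, Kdm5d, Uty) was 138 to 181 TPM in series 1, and 0 and 0.0253 TPM in series 2. All 3 libraries of series 1 thus went against their female label. Mitochondrial genes took 6.23% and 6.30% of TPM in series 2 and 10.7% to 11.1% in series 1. The identifier series and the sex chromosome transcripts cannot be told apart, and series 2 holds 8 h libraries only, so the changes with time are given with and without series 2. The defining markers of the labelled cells were present: Nes was at 690 to 784 TPM, Sox2 at 181 to 228 TPM and Fabp7 at 7679 to 10076 TPM. The markers Aif1 and Tmem119 of microglia, Cldn5 and Cdh5 of endothelium and Lum of fibroblasts were listed at 0 TPM in all 5 libraries. The whole marker lists summed to 0.478 to 1.49 TPM for microglia, 11.8 to 15.4 TPM for endothelium, 18.7 to 30.2 TPM for ependymal cells and 0.769 to 1.69 TPM for pericytes and fibroblasts.

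All 10 genes were expressed in every library, at 9.69 TPM or more. By TPM, Stat3 was the most abundant, followed by Nfib, and these 2 stood apart from each other and from the rest. By mean per-base coverage their ranges overlapped, with Stat3 above Nfib in 3 of 5 libraries, and that of Nfib overlapped Npas3. Coverage is not scaled for library size. Its median ratio to FPKM ran from 4.2 to 5.4 between libraries, so its ranges also hold that difference. Stat3 (chromosome 11, 100885098 to 100939540, GRCm38, minus strand) averaged 150 TPM over the 5 libraries and lay in the 92.1 percentile of tested genes. Nfib (chromosome 4, 82290173 to 82705750, minus strand) averaged 95.4 TPM, in the 86.6 percentile. In TPM the ranges of Stat3 (121 to 195 TPM) and Nfib (86.3 to 110 TPM) did not overlap, and neither did those of Nfib and Nfix (32.5 to 73.8 TPM). From Nfix downward every gene overlapped its neighbour in the order.

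The middle of the order held Nfix, Npas3, Il6st, Lhx2 and Nfia. Nfix (chromosome 8, 84699876 to 84800344, minus strand) averaged 49.5 TPM and Npas3 (chromosome 12, 53248677 to 54072175, plus strand) 43.3 TPM, and Nfix was the higher in only 2 of 5 libraries. Il6st (chromosome 13, 112464070 to 112510086, plus strand) averaged 41.3 TPM. Lhx2 (chromosome 2, 38339281 to 38369733, plus strand) averaged 29.8 TPM and was below Il6st in 5 of 5 libraries. Nfia (chromosome 4, 97772734 to 98118874, plus strand), the family member best known for starting gliogenesis, averaged 23.9 TPM, close to the middle of tested genes (53.0 percentile).

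The lowest levels were those of Zbtb20, Nfic and Lifr. Zbtb20 (chromosome 16, 42875881 to 43642602, plus strand) averaged 14.5 TPM, Nfic (chromosome 10, 81396186 to 81431005, minus strand) 13.3 TPM, and Lifr (chromosome 15, 7129559 to 7197489, plus strand) 10.9 TPM. Neighbours among these 3 changed places between libraries, each being above the next in 3 of 5. In TPM the shared chain Il6st exceeded Lifr by 3.37 to 4.46 times in every library. By mean per-base coverage the distance was smaller, with 54.4 for Il6st and 26.5 for Lifr.

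**Figure D1:**
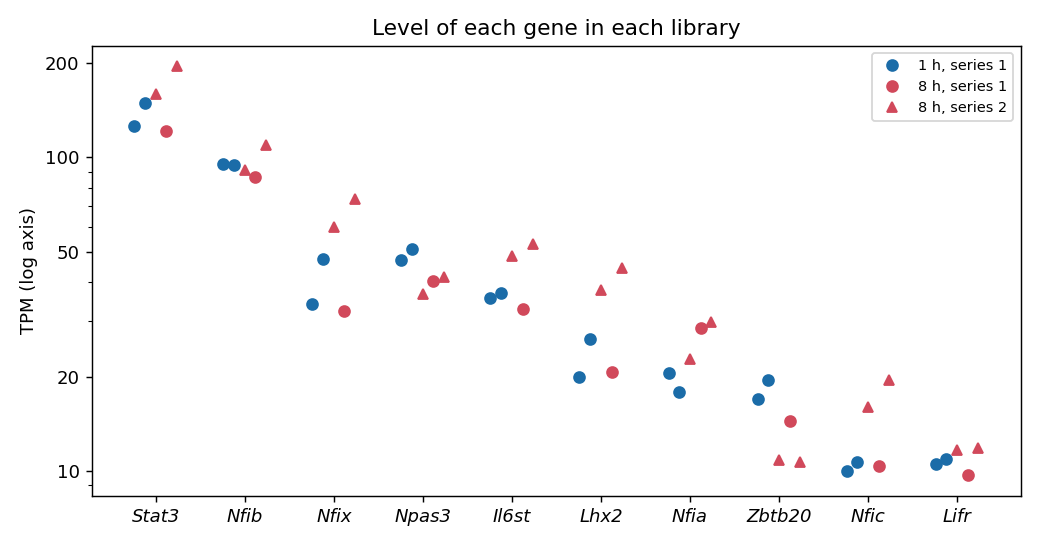
TPM of each gene (log axis) in each of the 5 libraries, with 1 h in blue, 8 h in red, circles for identifier series 1 and triangles for series 2. Stat3 (121 to 195 TPM) and Nfib (86.3 to 110 TPM) stand above the rest, and the triangles are the 2 highest points for Nfix, Lhx2, Nfic, Il6st, Stat3 and Lifr.

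Together the 4 NFI genes reached 160 and 170 TPM at 1 h. In 8 h replicates 13, 14 and 15 the sums were 190, 158 and 233 TPM. Mean sums were 165 ± 7.11 TPM (SD, n = 2) and 193 ± 37.6 TPM (SD, n = 3), a ratio of 1.17, and 8 h replicate 14 was the lowest of all 5 libraries. Nfib made up the greater part of the pool in series 1, with 59.7% and 55.4% at 1 h and 54.7% in 8 h replicate 14. Its share was 47.9% and 47.1% in 8 h replicates 13 and 15, where Nfix took 31.6% and 31.7%. Nfix took 20.6% to 27.8% in series 1. Nfia held 10.5% to 12.8% of the pool in 4 libraries and 18.1% in 8 h replicate 14. Nfic held 6.23% to 8.40%. These shares hold for TPM only, since by mean per-base coverage Nfia (5.71) was below Nfic (25.4).

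**Figure D2:**
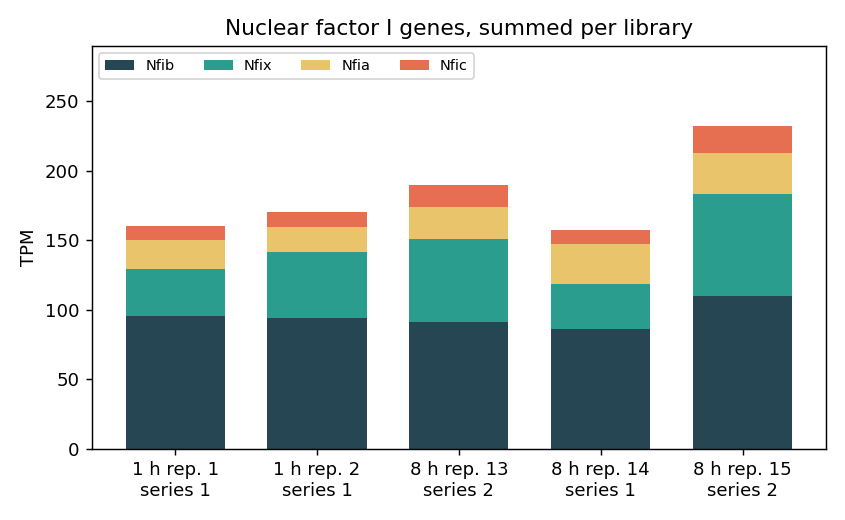
Stacked TPM of Nfib, Nfix, Nfia and Nfic in each library, with the identifier series under each bar. The bars of 8 h replicates 13 and 15 reach 190 and 233 TPM and the others 158 to 170 TPM, and the Nfix segment is 60.0 and 73.8 TPM in those bars against 32.5 to 47.3 TPM in the others.

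The promoters of the 10 genes were searched for the DNA words that NFI and STAT proteins bind, and those with a match are shown beside that of Gfap, the astrocyte filament gene that both factors drive. RefSeq promoter windows (GRCm38.p6, 250 bases before to 50 bases after the transcript start) were at hand for 9 of the 10 genes (all but Nfib), in 14 entries. A window need not lie at the outer start of its gene. That of Nfia (chr4:97581693-97581992) lies before the gene bounds given above, and that of Zbtb20 lies within them. The STAT motif TTCNNNGAA, searched on both strands, was in 3 of the 14 entries and in 8.30% of all 32851 promoter windows. The full NFI palindrome, TTGGC followed after 5 bases by GCCAA, was in 0 of the 14 entries and in 0.0365% of all windows. The short NFI motif TTGGCA, which can overlap the palindrome, was in 0 of the 14 entries and in 14.1% of all windows. The motif in Gfap (chr11:102897151-102897450, minus strand) began at position -2, counted from the transcript start. The motif of Nfix (chr8:84775779-84776078, minus strand, 1 of 4 entries of that gene) began at position -155, that of Nfic (chr10:81427124-81427423, minus strand) at -97, and that of Zbtb20 (chr16:43247034-43247333, plus strand) at 33. Gfap and Nfix hold the same 9 letters at the match. Capitals mark the STAT motif, and each sequence is written 5′ to 3′ along the gene's strand.
Gfap: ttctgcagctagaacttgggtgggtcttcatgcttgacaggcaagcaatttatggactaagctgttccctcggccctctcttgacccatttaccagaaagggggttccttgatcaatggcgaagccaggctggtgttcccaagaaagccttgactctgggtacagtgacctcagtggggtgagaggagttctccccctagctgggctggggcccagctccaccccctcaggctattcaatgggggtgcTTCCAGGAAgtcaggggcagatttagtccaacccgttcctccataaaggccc
Nfix: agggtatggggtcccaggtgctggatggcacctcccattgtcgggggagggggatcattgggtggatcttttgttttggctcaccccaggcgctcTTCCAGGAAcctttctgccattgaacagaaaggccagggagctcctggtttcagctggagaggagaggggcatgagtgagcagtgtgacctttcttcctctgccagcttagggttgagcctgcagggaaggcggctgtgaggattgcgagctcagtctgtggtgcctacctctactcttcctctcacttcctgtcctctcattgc
Nfic: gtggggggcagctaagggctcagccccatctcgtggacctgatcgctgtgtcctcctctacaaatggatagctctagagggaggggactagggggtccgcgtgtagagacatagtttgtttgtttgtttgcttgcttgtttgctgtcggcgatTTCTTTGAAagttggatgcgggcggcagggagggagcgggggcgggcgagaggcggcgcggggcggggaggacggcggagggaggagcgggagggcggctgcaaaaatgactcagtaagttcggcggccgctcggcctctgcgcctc
Zbtb20: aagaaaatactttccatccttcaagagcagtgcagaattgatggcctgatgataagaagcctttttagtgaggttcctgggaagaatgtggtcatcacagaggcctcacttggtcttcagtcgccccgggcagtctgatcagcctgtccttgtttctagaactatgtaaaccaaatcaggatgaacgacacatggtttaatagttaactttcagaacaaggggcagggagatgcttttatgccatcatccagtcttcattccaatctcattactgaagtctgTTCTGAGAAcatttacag
A match describes the letters only, and binding was not measured in these libraries.

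The labels contrast the times after PBS, and none of the 10 genes passed the test of 8 h against 1 h. In the TPM tables Nfia was higher at 8 h in every library, while Zbtb20 and Npas3 were lower in every library, and the other 7 genes overlapped between the times. In limma's test on log2(TPM + 1), a gene was called where the adjusted p did not exceed 0.05 and the log2 fold change was beyond 1 either way. Among all genes 6 of 13870 were called, 0.0433%. At an unadjusted p under 0.05 there were 3 of the 10 genes, against 12.3% of all tested genes. The median log2 fold change was 0.22 over the 10 genes and 0.10 over all genes.

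In 1 h replicates 1 and 2 Nfia was at 20.5 and 17.9 TPM, and in 8 h replicates 13, 14 and 15 at 22.8, 28.6 and 29.8 TPM. All 8 h libraries were above both 1 h libraries, as was the case for 23.7% of tested genes. The log2 fold change was 0.47 (SE 0.16, 95% interval 0.09 to 0.85, adjusted p = 0.369 by limma), with mean levels of 19.2 ± 1.89 TPM (SD, n = 2) at 1 h and 27.1 ± 3.74 TPM (SD, n = 3) at 8 h, and it did not pass the adjustment. Within series 1, where 8 h replicate 14 is the only 8 h library, it was 0.55 (SE 0.15). By TPM the direction of Nfia thus did not rest on series 2.

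Zbtb20 was at 16.9 and 19.5 TPM at 1 h, and at 10.8, 14.4 and 10.7 TPM at 8 h. Every 8 h library was below both 1 h libraries, a pattern seen in 9.43% of tested genes. Its log2 fold change was -0.58 (SE 0.17, 95% interval -1.0 to -0.15, adjusted p = 0.345 by limma), and -0.31 (SE 0.16) within series 1. Npas3 was at 47.0 and 51.1 TPM at 1 h, and at 36.6, 40.3 and 41.6 TPM at 8 h, also without overlap. Its log2 fold change was -0.31 (SE 0.11, 95% interval -0.57 to -0.04, adjusted p = 0.380 by limma), and -0.27 (SE 0.13) within series 1. In these bulk libraries, fewer cells of a type and less RNA per cell cannot be told apart.

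A further 5 genes overlapped between the times, with 8 h replicate 14 apart from the other 8 h libraries. A difference between the series and a change with time that replicate 14 lacks cannot be told apart here. Nfix was at 34.1 and 47.3 TPM at 1 h, and at 60.0, 32.5 and 73.8 TPM at 8 h, so replicate 14 was below both 1 h libraries and the other 8 h libraries above them. Lhx2 had the same layout, with 19.9 and 26.4 TPM at 1 h and 37.8, 20.6 and 44.4 TPM at 8 h, except that replicate 14 lay between the 1 h libraries. Stat3 was at 126 and 149 TPM at 1 h and at 159, 121 and 195 TPM at 8 h. Il6st was at 35.5 and 37.0 TPM at 1 h and at 48.4, 32.9 and 52.9 TPM at 8 h. Nfic was at 9.98 and 10.7 TPM at 1 h and at 15.9, 10.3 and 19.4 TPM at 8 h. In all 5 of these genes, 8 h replicates 13 and 15 were the highest libraries.

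Their log2 fold changes over all libraries lay between 0.18 for Stat3 and 0.49 for Lhx2, with adjusted p from 0.455 to 0.673 by limma. Within series 1 they were -0.30 for Nfix, -0.18 for Stat3, -0.15 for Lhx2, -0.14 for Il6st and 0.00 for Nfic. The interval of Nfix over all libraries ran from -0.49 to 1.24, and that of Lhx2 from -0.32 to 1.30, so neither direction is shown. Nfib was at 95.6 and 94.4 TPM at 1 h and at 90.9, 86.3 and 110 TPM at 8 h, with a log2 fold change of 0.00 (SE 0.13, 95% interval -0.31 to 0.31). Lifr was at 10.5 and 10.9 TPM at 1 h and at 11.7, 9.69 and 11.9 TPM at 8 h, with a log2 fold change of 0.04 (SE 0.14, 95% interval -0.31 to 0.39). Nfib and Lifr had the smallest differences between the times. Their intervals left out a 2-fold change, as did those of Stat3, Il6st, Nfia and Npas3.

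Without 8 h replicate 14, which leaves the 8 h group to series 2, an adjusted p of at most 0.05 was reached by 5 of the 10 genes and by 19.9% of all tested genes. These were Zbtb20 (log2 fold change -0.71, adjusted p = 0.0157), Nfic (0.72, adjusted p = 0.0207), Lhx2 (0.81, adjusted p = 0.0241), Il6st (0.47, adjusted p = 0.0267) and Nfix (0.71, adjusted p = 0.0450), all by limma. None moved by more than 1 on the log2 scale, so 0 of the 10 were called. Nfia (0.43, adjusted p = 0.108) and Npas3 (-0.32, adjusted p = 0.0901) kept their directions and missed the threshold.

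**Figure D3:**
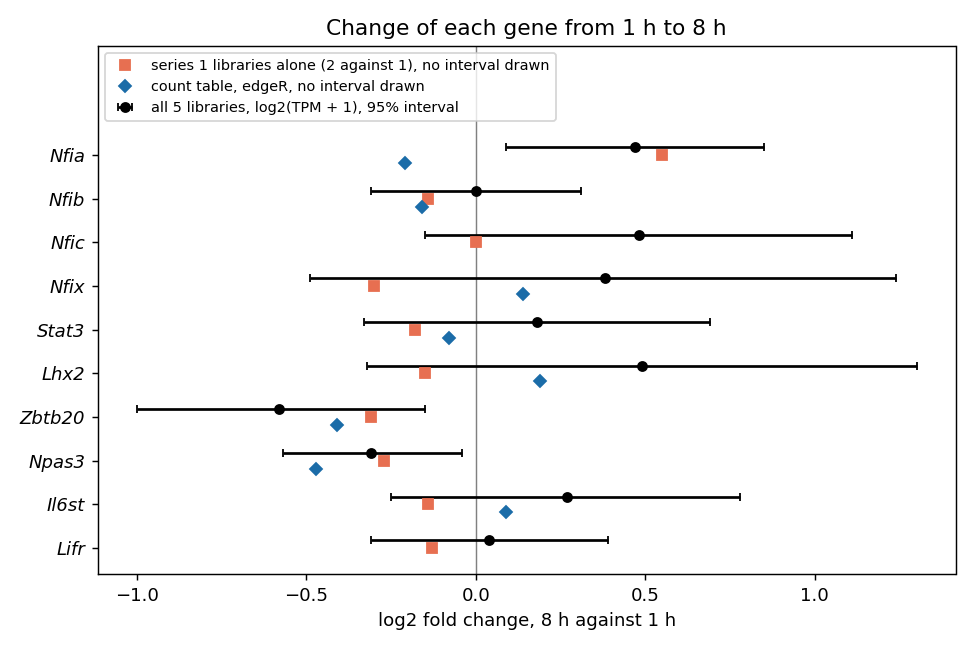
Log2 fold change of 8 h against 1 h for each gene, with black points and 95% intervals for all 5 libraries on log2(TPM + 1), orange squares for the series 1 libraries alone and blue diamonds for the count table. Nfia lies at 0.47 and 0.55 by TPM and at -0.21 in the count table, and Nfix, Lhx2, Stat3 and Il6st lie above 0 over all libraries and below it within series 1.

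The deposited count table gave another reading of the same comparison for the 8 genes that it listed (all but Nfic and Lifr). None of the 8 was called by edgeR, against 0.00% of the 7590 genes tested, and DESeq2 and limma-voom each called 0 genes as well. An unadjusted p under 0.05 was found for 1 of the 8 genes (Npas3) by each of the 3 tools, and for 2.62% of all genes by edgeR. The 3 columns named for 8 h replicates did not all match the TPM tables of those names. The column named 13 matched the table of replicate 14, with 78.3% of 6860 genes within 0.1 log2 against 26.1% for its own table. The column named 15 matched the table of replicate 13 (76.8%, against 40.9% for its own). The column named 14 matched no table, with 38.2% at most, for the table of 1 h replicate 2, and 26.4% for its own. The 1 h columns matched their own tables (78.0% each). Columns are therefore named as deposited, and counts were compared only between the times. The time of the column named 14 rests on its name alone, which limits every comparison of times in the counts.

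Npas3 was lower at 8 h in both tables. Its counts scaled to the column total (CPM) were 207 and 227 at 1 h and 175, 157 and 147 in the columns named 8 h replicates 13, 14 and 15, a log2 fold change of -0.47 (SE 0.11, adjusted p = 0.966 by edgeR). Zbtb20 had 318 and 280 CPM at 1 h and 287, 258 and 142 CPM at 8 h (log2 fold change -0.41, SE 0.28), so its times overlapped in the counts. Nfib had 543 and 556 CPM at 1 h and 520, 487 and 497 CPM at 8 h (log2 fold change -0.16, SE 0.09). In the counts 3 of the 8 genes (Npas3, Nfib and Nfia) were lower in every 8 h column, as were 7.05% of genes tested.

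Nfia went the opposite way in the 2 tables. It had 195 and 198 CPM at 1 h and 163, 178 and 179 CPM in the 8 h columns (log2 fold change -0.21, SE 0.09, adjusted p = 0.966 by edgeR), lower at 8 h without overlap, against its higher TPM at 8 h. Raw counts were 2581 to 3319 per column. In the column that matched the table of 8 h replicate 14, Nfia was at 163 CPM and below both 1 h columns, while that table held 28.6 TPM and lay above both 1 h tables. Among 7470 genes tested in both tables, 0.187% had no overlap between the times in each table and opposite directions in them. The direction of Nfia between the times thus depends on which deposited table is read. Stat3, Lhx2, Nfix and Il6st overlapped between the times in the counts too, with log2 fold changes from -0.08 to 0.19.

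**Figure D4:**
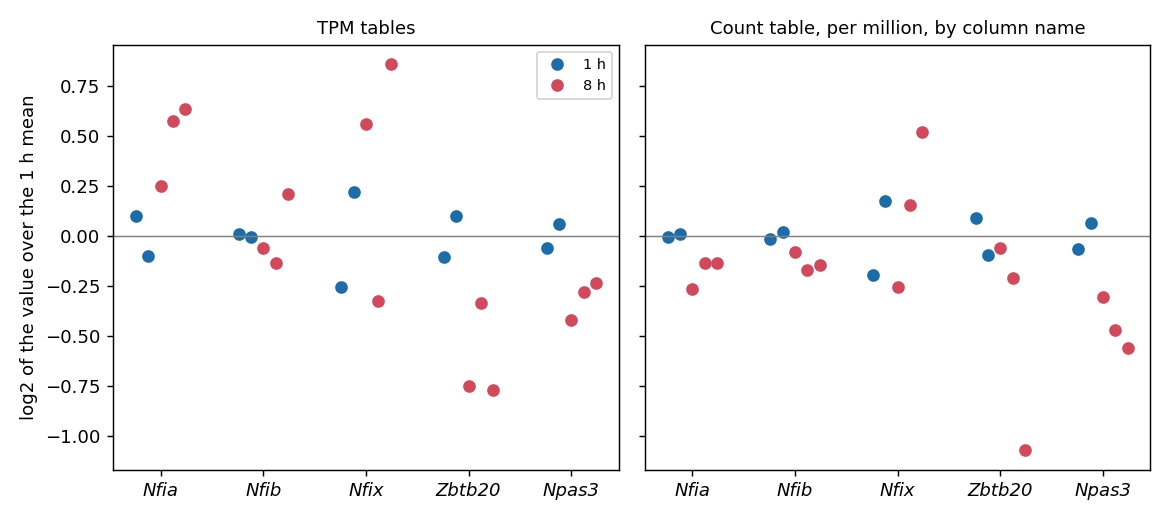
Log2 of each value over the 1 h mean for 5 of the genes, from the TPM tables (left) and from the count table as CPM by column name (right), with 1 h in blue and 8 h in red. All red points of Nfia are above the blue ones on the left and below them on the right, and those of Npas3 are below in both.

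The identifier series were compared next, with time as a term in the fit. Such a fit sets 8 h replicates 13 and 15 against 8 h replicate 14 alone, so the arm of series 1 is 1 library, which is assumed to vary like the others, and the p-values rest on that assumption. Among the 10 genes Nfix was called, at 66.9 ± 9.74 TPM in series 2 (SD, n = 2) and 32.5 TPM in 8 h replicate 14, with 34.1 and 47.3 TPM in the 1 h libraries of series 1. The log2 difference was 1.01 (SE 0.22, 95% interval 0.46 to 1.56, adjusted p = 0.0486 by limma). Over all genes, 3.33% were called higher and 0.692% lower in series 2, so 1 of 10 called higher and 0 of 10 lower stand beside those shares. Of the calls over all genes 82.8% were on the higher side, and 71.3% after median-ratio scaling. The call of Nfix was lost under 6 of 9 alternatives, its adjusted p running from 0.0115 to 0.199 over them. Without 8 h replicate 13 its adjusted p was 0.117 and without 8 h replicate 15 it was 0.181.

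Lhx2 and Il6st reached an adjusted p of at most 0.05 with a smaller difference, as did 7.44% of genes on the higher side, Nfix included. Lhx2 was at 41.1 ± 4.66 TPM in series 2 (SD, n = 2) and 20.6 TPM in 8 h replicate 14 (log2 difference 0.96, SE 0.20, adjusted p = 0.0425 by limma). Il6st was at 50.6 ± 3.17 TPM (SD, n = 2) and 32.9 TPM (0.61, SE 0.12, adjusted p = 0.0384 by limma). Over the alternatives the adjusted p ran from 0.0127 to 0.176 for Lhx2 and from 0.0350 to 0.152 for Il6st. Nfic followed at 0.72 (SE 0.17, adjusted p = 0.0552) and Stat3 at 0.54 (SE 0.17, adjusted p = 0.108).

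Series 2 was above every series 1 library for 6 of the 10 genes (Nfix, Lhx2, Nfic, Il6st, Stat3 and Lifr), against 39.8% of tested genes. It was below every series 1 library for Zbtb20 alone among the 10, against 13.5% of tested genes. Zbtb20 differed by -0.39 (SE 0.15, adjusted p = 0.161 by limma). Nfia (-0.13, 95% interval -0.60 to 0.34), Npas3 (-0.05, -0.38 to 0.28) and Nfib (0.21, -0.13 to 0.55) overlapped between the series. On the TPM scale, series 2 exceeded 8 h replicate 14 by 2.06 times for Nfix, 1.99 for Lhx2, 1.71 for Nfic, 1.54 for Il6st and 1.46 for Stat3. The same ratio was 0.969 for Npas3, 0.921 for Nfia and 0.745 for Zbtb20. The median log2 difference was 0.40 over the 10 genes and 0.11 over all genes. Both comparisons use the same 5 libraries and are not independent.

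Of 12 genes that NFI or STAT3 are known to act on, all tested, 4 were called higher in series 2 (Gfap, Aqp4, Mmd2 and Sparcl1), 0 were called lower and 8 were not called. The median log2 difference of the 12 was 0.66, and S100b (-0.05) and Apcdd1 (0.10) overlapped between the series. The list was not split into genes that these factors raise and genes that they lower, so its median gives no direction of their action. None of the 12 was called between the times. For Gfap the 1 h libraries held 4.35 and 4.15 TPM and 8 h replicates 13, 14 and 15 held 26.0, 1.81 and 47.2 TPM, the layout of Nfix with a wider spread. Its log2 difference between the series was 3.68 (SE 0.33, adjusted p = 0.00616 by limma), and it was the target that remained called without 8 h replicate 15, while Gfap and Aqp4 did without 8 h replicate 13. The water channel gene Aqp4 differed by 2.20 (SE 0.24), the Golgi protein gene Mmd2, induced by NFIA, by 1.96 (SE 0.21), and Sparcl1, which encodes the astrocyte-secreted hevin, by 1.15 (SE 0.18). The 3 most abundant targets were Fabp7, a radial glial lipid carrier (mean 8582 TPM), Aldh1l1, an astrocyte folate enzyme (579 TPM), and the glutamate transporter gene Slc1a3 (469 TPM). Slc1a3 differed by 0.70 (adjusted p = 0.0169), and Aldh1l1 (0.61) and Fabp7 (0.33) missed the threshold.

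Markers of mature astrocytes, which share Gfap, Aqp4, Aldh1l1 and the calcium-binding protein gene S100b with that list, summed to 1007 and 1018 TPM in series 2 and to between 586 and 711 TPM in series 1. Of these 6 markers, 3 (Aqp4, Slc1a2 and Gfap) were called higher in series 2 and 0 lower, beside 3.33% and 0.692% of all tested genes. Oligodendrocyte markers summed to 40.1 and 76.9 TPM in series 2 and to 115 to 167 TPM in series 1, and 1 of the 4 tested markers (Mbp) was called lower, while Mag (0.24) and Mobp (1.10) had positive log2 differences. Neuronal markers summed to 43.2 and 46.4 TPM in series 2 and to 62.4 to 68.3 TPM in series 1, with 1 of 5 (Syt1) called lower. The calls of Slc1a2, Mbp and Syt1 were lost without 8 h replicate 13 and without 8 h replicate 15. With no filter none of these marker calls remained. The median log2 difference of the 5 neuronal markers was 0.02, with Tubb3 at -0.93 and Dcx (0.47), Snap25 (0.38) and Rbfox3 (0.02) above 0. Their part in the differences of Nfix, Lhx2 and Il6st was not tested.

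**Figure D5:**
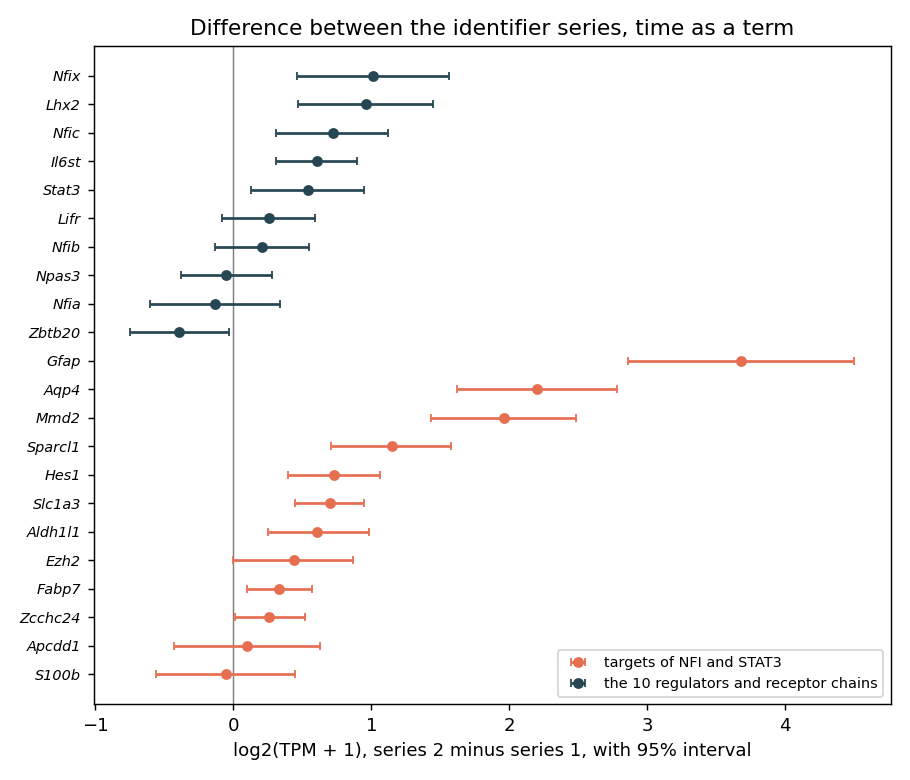
Difference of identifier series 2 from series 1 in log2(TPM + 1), with 95% intervals and time as a term (8 h replicates 13 and 15 against 8 h replicate 14), for the 10 genes (dark) and for 12 targets of NFI and STAT3 (orange). Nfix lies at 1.01 and Lhx2 at 0.96 at the top of the 10, Zbtb20 at -0.39 at their foot, and Gfap at 3.68 is the farthest of the targets.

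Ligands that signal through Il6st were few. Of 9 ligand genes, 4 had a mean of at least 1 TPM, and the inflammatory cytokine genes Il6 and Osm as well as Ctf2 were listed at 0 TPM in all 5 libraries. The most abundant was Clcf1, which signals with the CNTF receptor. Its symbol has 2 gene identifiers, and only the one with the higher mean TPM was read. Clcf1 was at 25.0 and 17.2 TPM at 1 h and 9.53, 23.1 and 7.67 TPM at 8 h. It was called lower in series 2 (log2 difference -1.33, SE 0.25, adjusted p = 0.0312 by limma), the opposite direction to its signalling chain Il6st. That call was lost with no filter, without 8 h replicate 13 and without 8 h replicate 15. Lif, the ligand of Lifr, was at 6.85 and 5.15 TPM at 1 h and at 10.3, 7.88 and 9.74 TPM at 8 h, without overlap (log2 fold change 0.56, SE 0.19, adjusted p = 0.369 by limma). Cntf was at 6.36 and 7.51 TPM at 1 h and at 3.78, 3.63 and 3.36 TPM at 8 h, without overlap the other way (-0.79, SE 0.16, adjusted p = 0.262 by limma).

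Co-receptors that give Il6st its ligand choice differed between the series in opposite directions. Cntfr, the CNTF-binding chain, was the highest at 28.7 and 40.1 TPM at 1 h and 57.2, 26.7 and 51.7 TPM at 8 h. It differed by 1.00 between the series (SE 0.21, adjusted p = 0.0423 by limma), at the edge of a call. The oncostatin M receptor gene Osmr was at 2.20 and 2.35 TPM at 1 h and at 5.48, 2.09 and 8.22 TPM at 8 h, and was called higher in series 2 (log2 difference 1.32, SE 0.26). The interleukin 6 receptor gene Il6ra was at 9.98 and 6.15 TPM at 1 h and at 1.90, 5.72 and 1.70 TPM at 8 h, and was called lower (-1.26, SE 0.28). The mean of Il11ra1, which binds interleukin 11, was 12.4 TPM, and it was not called. The calls of Osmr and Il6ra were lost with no filter, with median-ratio scaling and with FPKM. They were also lost without 8 h replicate 13 and without 8 h replicate 15. None of the 4 co-receptors was called between the times.

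The 15 genes of JAK-STAT signalling and feedback, of which 14 were tested, gave 0 calls between the times and 1 between the series. That gene was Socs2, a feedback inhibitor, at 1.77 and 0.977 TPM at 1 h and 4.39, 0.382 and 5.16 TPM at 8 h (log2 difference 2.06, SE 0.28, adjusted p = 0.0138 by limma). The most abundant were the phosphatase gene Ptpn11 (mean 112 TPM) and the kinase genes Jak1 (58.1 TPM) and Jak2 (43.3 TPM). Among 20 partners and co-regulators, of which 18 were tested, 0 were called in either comparison. The precursor factor gene Olig2 led them with a mean of 536 TPM, followed by the chromatin remodeller gene Smarca4 (157 TPM) and the LIM cofactor gene Ldb1 (123 TPM), a partner of Lhx2. Over the 5 lists other than the 10 genes, 52 of 60 genes were tested. Between the times 0 were called and 8 (15.4%) had an unadjusted p under 0.05, beside 12.3% of all tested genes. Without overlap, 9 (17.3%) were higher and 9 (17.3%) lower at 8 h, beside 23.7% and 9.43% of all genes. Between the series 6 (11.5%) were called higher and 2 (3.85%) lower, beside 3.33% and 0.692% of all genes. Without 8 h replicate 13 these were 2 and 0 (Gfap and Aqp4), and without 8 h replicate 15 they were 1 and 0 (Gfap).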

How the data were processed

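Stranded libraries of poly-A selected RNA were read from both ends. The authors aligned reads to GRCm38 with STAR and counted them with featureCounts (nf-core/rnaseq). The deposited count table holds raw counts for 7599 genes, and its columns sum to between 13988166 and 18572154 counts, which is not the full depth. The authors also deposited TPM, FPKM and mean per-base coverage per gene and library. The depth behind TPM is unknown. Members were rows with the symbol, summed per gene identifier.

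The TPM tables were tested with limma 3.58.1 (R 4.3.3, trend, Benjamini-Hochberg) on log2(TPM + 1) where a gene's mean TPM was 1 or more. Such fold changes understate the change of low genes. Counts were tested with edgeR 4.0.16 (quasi-likelihood, TMM, filterByExpr), and with DESeq2 1.42.0 and limma-voom as alternatives. Both scripts were tested on simulated data. All tests were two-sided. The comparison of series had time as a term, and the comparison of times had no covariate except in the alternatives with the series as a term. Sequences are RefSeq's.

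The members, lists and tests were chosen with earlier results of these data known. Genes named are the members, the 3 most abundant, called and 0 TPM genes of each list, the 2 nearest patterns to members ranging over 1 log2, expressed overlapping genes, and cell type markers. Hydrogen peroxide libraries were not analysed here.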

Additional observations from a re-analysis of the deposited data

How the results depend on the processing

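No paired analysis was possible because the groups compared share no replicate number. None of the 10 genes was called between the times under any alternative run, in the TPM tables or in the count table. The count over all genes in the TPM tables was 6, against 0 with no filter, 1 with a mean TPM of at least 5, 19 with the identifier series as a term, and 0 to 568 when libraries were left out in turn, 568 being without 8 h replicate 14. With the series as a term, and equally in the series 1 libraries alone, log2 fold changes turned to -0.30 for Nfix, -0.18 for Stat3, -0.15 for Lhx2, -0.14 for Il6st, -0.14 for Nfib and -0.13 for Lifr. Median-ratio scaling, which moved the median of all genes by -0.10, gave -0.10 for Nfib and -0.06 for Lifr, and FPKM gave -0.06 and -0.018. With libraries left out in turn, Nfib ran from -0.099 to 0.072 and Lifr from -0.0084 to 0.13. Nfia, Zbtb20 and Npas3 kept their directions under all 12 alternatives in the TPM tables, with Nfia at 0.37 to 0.58, Zbtb20 at -0.71 to -0.31 and Npas3 at -0.41 to -0.25. Nfia was lower in the counts under all 10 alternatives there, at -0.22 to -0.17.

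Between the series, 1 of the 10 genes was called, against 0 with pseudocount 0.1, 0 with no filter, 0 with median-ratio scaling, 0 with FPKM, 3 with no fold change threshold, and 0 to 1 with libraries left out. The count over all genes was 558, against 0 with no filter, 352 with FPKM, 1261 with no fold change threshold, and 23 to 644 with libraries left out, 23 being without 8 h replicate 15 and 63 without 8 h replicate 13. Without libraries in turn Nfia ran from -0.31 to 0.06 and Npas3 from -0.14 to 0.043. In the counts, where 0 genes were called throughout, leaving out columns moved Nfix from -0.062 to 0.35, Stat3 from -0.21 to 0.033 and Lhx2 from -0.02 to 0.42. The cause of these changes was not tested. Leaving out 8 h replicate 14 could not be fitted for the series, since time and series then coincide, and a lone sample left in a group is assumed to vary like the others. The leave-outs for the series and the list counts without a library were chosen after seeing the data. With the count columns named as deposited, a series term in the counts assigns libraries by those names. The number of libraries and the unknown depth of the TPM tables limit what could be detected.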

Other observations

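Nfix and Lhx2, whose log2(TPM + 1) ranged over 1.16 and 1.12 across the libraries, were compared with 10276 genes of a mean TPM of at least 5 whose symbols are neither Gm followed by a number nor end in Rik. Likeness was the root mean square distance between profiles centred on their own mean, over 5 libraries. The nearest to Nfix were Nkx2-2, a homeobox gene of ventral neural tube and oligodendrocyte precursors (distance 0.0478), and Fzd2, a Wnt receptor gene (0.0589). Nkx2-2 was at 7.87 and 12.1 TPM at 1 h and at 14.2, 7.44 and 17.5 TPM at 8 h. The nearest to Lhx2 were Ntn1, which encodes the guidance cue netrin 1 (0.0463), and Gpr37l1, an astroglial receptor gene (0.0481). Ntn1 was at 66.4 and 87.5 TPM at 1 h and at 128, 72.8 and 140 TPM at 8 h. With 5 libraries in 2 kinds, such profiles are a description only.

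The order of the 10 genes differed between the deposited scales. By mean per-base coverage Stat3 (153), Nfib (139) and Npas3 (120) led. Nfia and Zbtb20 were the lowest of the 10, at 5.71 and 2.65, and Lhx2 was next at 13.3, while by TPM Lifr and Nfic were the lowest. Coverage per FPKM in 1 h replicate 1 was 0.463 for Nfia and 0.311 for Zbtb20, 5.57 for Npas3, and 4.19 in the median of tested genes. In GENCODE vM21, Zbtb20 has 21 transcripts of up to 26901 bases and Nfia 8 transcripts of up to 9526 bases. The ratio for Nfia was 0.0826 to 0.0897 of the highest ratio in each library, so it was near constant across libraries.

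The agreement of TPM and counts could be read in the 1 h libraries, whose columns matched their tables. From replicate 1 to 2, Zbtb20 differed by 0.21 log2 in TPM and by -0.18 in CPM, a gap of 0.41 after centring on the median gene that exceeded those of 96.3% of genes. The gaps of Stat3 (0.22), Nfia (-0.20) and Nfix (0.12) exceeded those of 90.2%, 89.1% and 82.1% of genes, and that of Npas3 (0.01) those of 31.4%. The median absolute gap was 0.0263.

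By the deposited coordinates, 22 genes overlap 8 of the 10 genes, and 4 of those have a mean of at least 1 TPM. E130114P18Rik, on the strand opposite to Nfia, was at 51.2 to 65.4 TPM, above Nfia in 5 of 5 libraries. BC002163 lies within Zbtb20 on the same strand and was at 21.5 to 25.7 TPM, Gm11266 opposite Nfib at 2.28 to 6.04 TPM, and Stat5a opposite Stat3 at 0.989 to 1.54 TPM. The sources used here do not say how reads were shared between overlapping genes.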
